A study of Rattus norvegicus with 20 samples.

Results

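The imprinted growth genes Igf2, H19, Dlk1, Plagl1, Peg3, Mest, Cdkn1c, Grb10 and Igf2r were followed in the isolated renal vasculature of rats. The members were the transcripts of the array table whose platform annotation gave one of these 9 gene symbols. Of the 9 genes, 6 had 1 transcript of their own symbol, among 18511 transcripts annotated with a single gene symbol and 36685 transcripts in all. H19 shared its transcript with the microRNA gene Mir675, and this is named the H19/Mir675 transcript here and is left out of the counts over the 6 genes. No transcript was matched to Peg3 or Mest, which were not analysed here.

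Wistar Kyoto pups underwent maternal separation, abbreviated MatSep and used as an early life stressor, in which litters were taken daily from the dam to a warmed incubator during early postnatal life, while control litters stayed undisturbed with their mother. RNA from renal vessels was hybridised to RaGene 2.0 ST arrays, 1 array per male rat, in 4 groups of 5, namely controls and MatSep animals sampled as neonates at postnatal day 10 (P10) or as adults at P180. At P10 the MatSep rats were still within the separation period, and by P180 it had long ended. The vessels were what a sieve retained after the kidney was grated, with a finer mesh in neonates than in adults, and the litter of each rat was not given. No drug, deletion or transgene is named for any group. The sample labels call the controls littermates, whereas the protocol separated or left whole litters. P-values measure the spread between the arrays of a group, which may share litters.

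Imprinted genes are transcribed mainly from the allele inherited from one parent, and many of them set the rate of growth of the fetus and the newborn. Igf2 encodes insulin-like growth factor 2, the main growth factor of fetal life, and H19 is a long non-coding RNA of the same locus that competes with Igf2 for enhancers and carries miR-675. Plagl1 (Zac1) is a zinc-finger transcription factor that regulates a network of imprinted genes in the mouse, and Dlk1 is a membrane protein of the Notch-ligand family that is expressed in immature cells. Cdkn1c (p57) stops the cell cycle, Grb10 is an adaptor that restrains signalling by the insulin and IGF1 receptors, and Igf2r removes IGF2 by carrying it to lysosomes. In the kidney, the family is best known from nephrogenesis, which in rats continues after birth.

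The sequences of the microRNAs carried by the leading pair of genes are shown because the H19/Mir675 transcript had the largest change of any member and a separate array transcript covered the Mir483 precursor. In RefSeq annotation of build GRCr8, Mir675 lies inside H19 and Mir483 inside Igf2, both on the minus strand of chromosome 1. The seed, bases 2 to 8, is in capitals, and the 4 seeds differ from each other.
rno-miR-675-5p (chr1:207161800-207161821): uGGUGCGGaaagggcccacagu
rno-miR-675-3p (chr1:207161766-207161786): uGUAUGCCcuaaccgcucagu
rno-miR-483-5p (chr1:207247903-207247924): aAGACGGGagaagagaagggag
rno-miR-483-3p (chr1:207247865-207247886): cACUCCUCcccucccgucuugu

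Promoter windows, 250 bases before to 50 after an annotated start, were matched for 5 of the 6 genes with a transcript of their own symbol, Igf2 with 2 windows. The windows of Igf2 and Plagl1 are printed because these were the 2 genes of the 6 with the largest fall with age. Capitals mark the GC box GGGCGG on either strand (as CCGCCC where it is on the other strand).
Igf2, first window (chr1:207253931-207254230, minus strand): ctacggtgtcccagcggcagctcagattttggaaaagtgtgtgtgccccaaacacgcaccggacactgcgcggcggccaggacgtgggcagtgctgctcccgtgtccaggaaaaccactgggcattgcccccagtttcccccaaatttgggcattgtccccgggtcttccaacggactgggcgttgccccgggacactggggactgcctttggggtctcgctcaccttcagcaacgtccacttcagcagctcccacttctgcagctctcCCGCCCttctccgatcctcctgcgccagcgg
Igf2, second window (chr1:207250426-207250725, minus strand): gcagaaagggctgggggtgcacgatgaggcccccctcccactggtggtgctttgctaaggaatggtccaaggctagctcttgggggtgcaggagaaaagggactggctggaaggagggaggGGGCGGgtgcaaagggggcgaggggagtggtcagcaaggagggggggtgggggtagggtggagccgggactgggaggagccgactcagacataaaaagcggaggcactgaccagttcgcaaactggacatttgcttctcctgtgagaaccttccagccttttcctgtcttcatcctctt
Plagl1 (chr1:9297214-9297513, plus strand): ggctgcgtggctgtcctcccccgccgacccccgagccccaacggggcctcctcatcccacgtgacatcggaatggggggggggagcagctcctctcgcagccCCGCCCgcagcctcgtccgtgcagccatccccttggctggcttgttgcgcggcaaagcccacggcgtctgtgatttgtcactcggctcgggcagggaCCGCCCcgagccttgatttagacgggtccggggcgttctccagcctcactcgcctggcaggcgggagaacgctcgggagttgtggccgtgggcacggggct

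Each of the 6 windows held GGGCGG, from 1 copy in each Igf2 window to 5 in Grb10, while 33.1% of the 33465 rat promoter windows of this length held it. The palindrome GGGGCCCC, a sequence that Zac1 binds, was in none of the 6 windows and in 0.858% of all windows. TATAAA was also in none of the 6, against 14.2% of all windows. Of the members with no array transcript, the Peg3 window held 1 GGGGCCCC and 0 GGGCGG, and the Mest window 0 and 1. The windows of Dlk1 and Grb10 were rich in CpG, with 45 and 44 CpG dinucleotides against a median of 7 over all windows, while the second Igf2 window held 7. A match of letters is a description and no measure of binding.

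Which of these genes are expressed differently in the neonatal and the adult renal vasculature was asked first. All 6 genes with a transcript of their own symbol fell from P10 to P180 in control rats, and so did the H19/Mir675 transcript. The fall was largest for H19/Mir675, at 12.3-fold in intensity, and smallest for Grb10, at 1.60-fold. The table holds no detection call. In adults the mean levels of H19/Mir675, Dlk1, Meg3 and the Mir483 precursor were at percentiles 18.5 to 35.9 of the 18511 transcripts with a single symbol. Igf2 was at 44.6 in controls and 43.7 in MatSep rats. Its adult mean log2 of 6.61 and 6.53 lay above the array medians over all transcripts, 6.00 to 6.18. The adult levels of these transcripts were not shown to be above background, so that their folds, and differences between them, are those of the intensities. Of all 18511 transcripts, 20.6% fell and 24.7% rose in the same comparison (limma, adjusted p below 0.05, Benjamini-Hochberg over all transcripts with a single symbol), against 6 of 6 and 0 of 6 for the members. The median log2 fold change was -0.98 over the 6 genes and 0.05 over all transcripts. In all 6 genes the lowest control P10 array lay above the highest control P180 array, which held for 15% of all transcripts. In a preparation of whole vessels, fewer cells of a type and less RNA per cell cannot be told apart.

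Igf2 intensity was 232, 516, 667, 335 and 301 in the control P10 arrays. It was 119, 127, 102, 69.9 and 82.8 in the control P180 arrays. The neonates varied more, with a log2 SD of 0.61 against 0.36 in the adults, and none reached the adult range. The fall was 3.90-fold (log2 -1.97, 95% interval -2.47 to -1.46, adjusted p = 1.28e-06, limma). In MatSep rats Igf2 intensity was 461, 564, 733, 645 and 727 at P10. It was 94.6, 94.7, 136, 71.7 and 78.1 at P180, again without overlap. The fall in MatSep rats was 6.66-fold (log2 -2.74, 95% interval -3.24 to -2.23, adjusted p = 1.11e-08, limma).

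The H19/Mir675 transcript had intensities of 626, 998, 571, 357 and 338 in control P10 arrays. Its control P180 values were 57.0, 45.8, 45.2, 28.9 and 45.0, so that the neonatal and adult arrays were far apart. The log2 fold change was -3.62 (95% interval -4.18 to -3.06, adjusted p = 2.89e-09 over all 36685 transcripts, limma), and 17.9% of these fell. In MatSep rats the values were 910, 1586, 889, 752 and 713 at P10 and 46.5, 38.3, 54.8, 38.6 and 32.5 at P180. This was a 22.4-fold fall in intensity (log2 -4.48, adjusted p = 1.20e-10, limma), where 17.7% of the 36685 fell. Signals of H19 and of the miR-675 precursor cannot be separated on this probe set.

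Plagl1 intensity was between 1064 and 1360 in the control P10 arrays and between 376 and 470 in the control P180 arrays. The 5 neonatal arrays were closely grouped, with a log2 SD of 0.15 against 0.61 for Igf2. Plagl1 fell 2.95-fold (log2 -1.56, SE 0.09, adjusted p = 8.38e-12, limma). In MatSep rats it fell 3.59-fold (log2 -1.84, SE 0.09, adjusted p = 6.71e-13, limma).

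Dlk1 had low intensity in all groups. Its intensity was 71.5, 74.9, 115, 85.5 and 78.8 in control P10 arrays and 50.8, 44.2, 52.0, 46.2 and 36.6 in control P180 arrays. The fall was 1.84-fold in controls (log2 -0.88, SE 0.18, adjusted p = 0.000502, limma) and 1.82-fold in MatSep rats (log2 -0.86, SE 0.18, adjusted p = 0.000547, limma). In MatSep rats the ages overlapped, since MatSep P180 replicate 3 had 80.0 while the other 4 adults had 34.9 to 51.5 and the neonates 75.8 to 96.9. Dlk1 was the only one of the 6 genes that overlapped in MatSep rats, and 16.8% of all transcripts were without overlap in that direction.

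Among the genes that restrain growth, Grb10 had intensities of 449 to 649 in control P10 arrays and 325 to 355 in control P180 arrays. The log2 fold change was -0.68 (SE 0.08, adjusted p = 6.43e-07, limma) in controls and -0.92 (SE 0.08, adjusted p = 7.90e-09, limma) in MatSep rats. Igf2r, the receptor that clears IGF2, was measured at 1226 to 1602 in control P10 arrays and 725 to 961 in control P180 arrays. It fell by 0.69 on the log2 scale in controls (SE 0.09, adjusted p = 1.47e-06, limma) and by 0.85 in MatSep rats (SE 0.09, adjusted p = 7.90e-08, limma). Both genes were thus lower in the adult vessels by less than Igf2 in either group of rats.

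Cdkn1c fell in both groups, and its size depended on which neonatal arrays were used. Its intensity in control P10 arrays was 726, 1205, 292, 321 and 291. In control P180 arrays it was 287, 209, 221, 206 and 203, so that the lowest neonate barely exceeded the highest adult. The log2 fold change was -1.09 in controls (SE 0.35, adjusted p = 0.0166, limma) and -1.17 in MatSep rats (SE 0.35, adjusted p = 0.00986, limma). The control P10 rats with 726 and 1205 were replicates 1 and 2, and the MatSep P10 rats with the highest values, 956 and 978, were also replicates 1 and 2. Without control P10 replicate 2 the control change was -0.75 (adjusted p = 0.0550, limma), and with array weights it was -0.79 (adjusted p = 0.0502, limma).

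**Figure D1:**
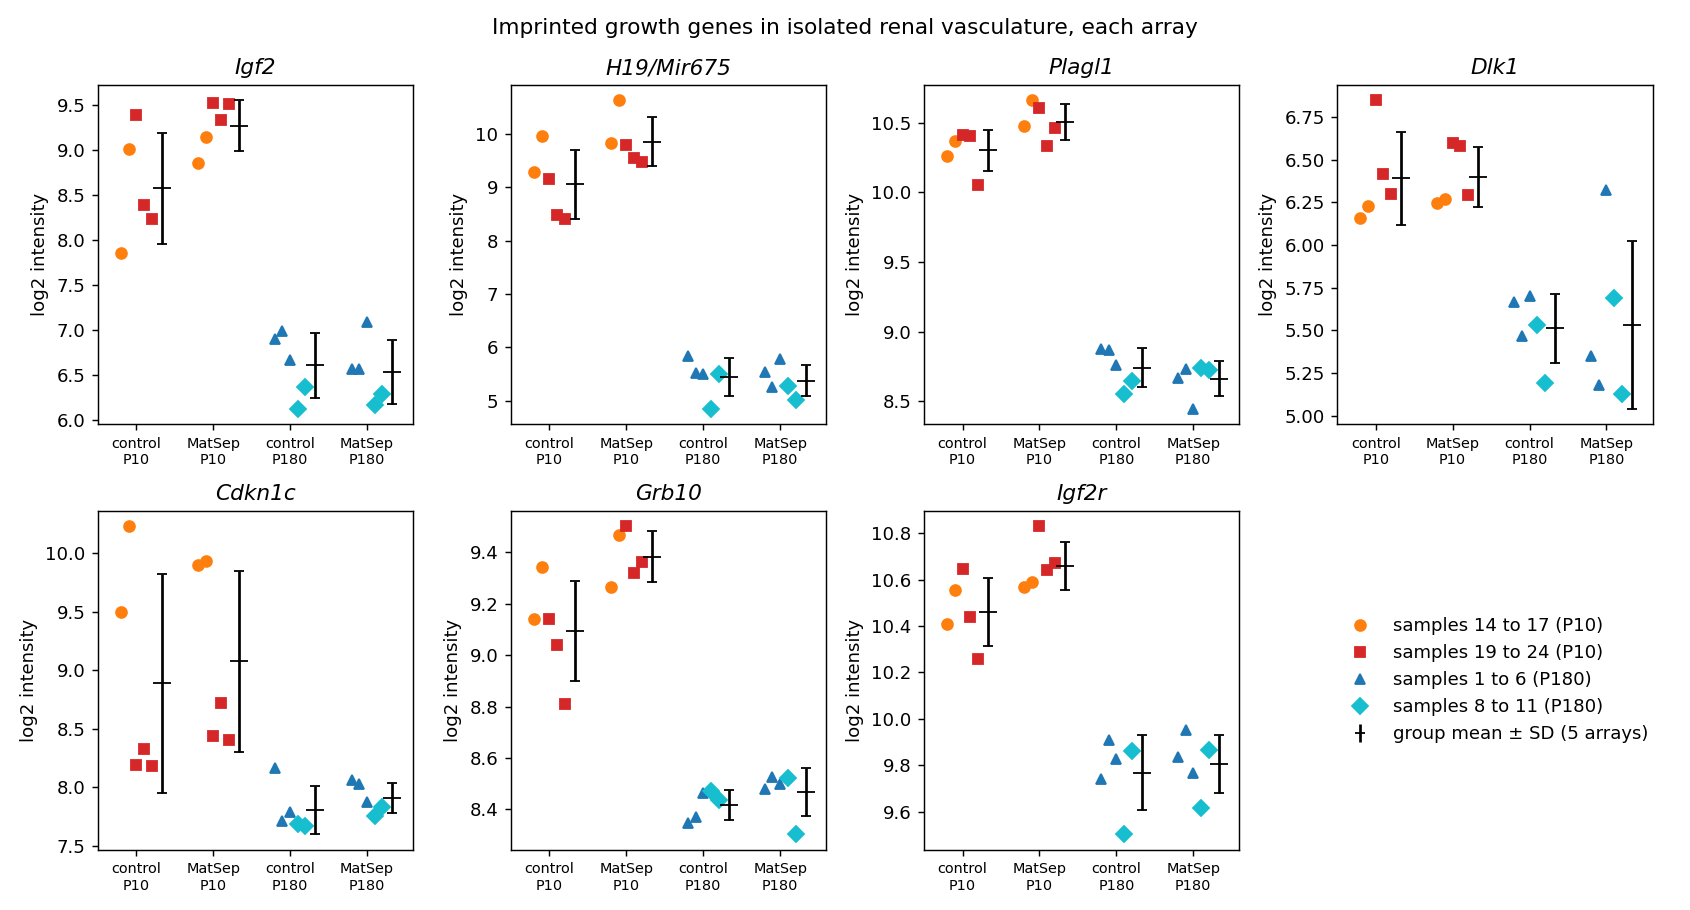
Log2 intensity of each array for the 6 genes and the H19/Mir675 transcript in the 4 groups of 5 rats, with the group mean and SD in black and the runs of sample numbers marked by symbol. Igf2 lies between 7.86 and 9.52 in the P10 arrays and between 6.13 and 7.08 in the P180 arrays, and Cdkn1c at P10 separates by run.

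The sample numbers in the file headers form a pair of runs at each age, 14 to 17 and 19 to 24 at P10 and 1 to 6 and 8 to 11 at P180. The labels do not say what the gaps stand for, and each run holds control and MatSep rats but rats of a single age. The runs differed for 2930 transcripts at P10, or 15.8% of those tested, and for 459 at P180, or 2.48% (limma, adjusted p below 0.05). The difference of samples 19 to 24 minus samples 14 to 17 was -1.52 on the log2 scale for Cdkn1c (SE 0.12, adjusted p = 1.15e-06, limma) and -0.78 for H19/Mir675 (SE 0.19, adjusted p = 0.0163, limma). The other 5 genes had adjusted p of 0.282 to 0.745 for the P10 runs, and no member passed at P180. Over the P10 arrays of samples 19 to 24 alone, Cdkn1c was -0.43 with age in controls (adjusted p = 0.00558, limma) and -0.61 in MatSep rats (adjusted p = 0.000365, limma). Over samples 14 to 17 alone it was -2.07 and -2.01, with adjusted p of 3.88e-07 and 5.23e-07 (limma). Both subsets were chosen after the data were seen. All 6 genes fell in each subset and in both groups of rats. The share of all transcripts that fell in each subset is not given here.

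The markers of other cells also moved with these runs. The mean log2 level of 14 measured cell cycle genes was 9.31 to 9.53 in samples 14 to 17 and 9.11 to 9.28 in samples 19 to 24, without overlap. The endothelium list was 9.73 to 9.84 and 9.90 to 10.4, and the adrenal medulla and nerve list 5.47 to 5.75 and 5.78 to 6.17, both higher in samples 19 to 24. The adrenal medulla and nerve list rested on 3 of 6 genes, at levels within or below the range of the array medians. The vascular smooth muscle list was 8.47 to 9.61 and 9.23 to 10.3 (mean 0.75 higher in samples 19 to 24), and the pericyte and mesangium list was 9.21 to 9.70 and 9.51 to 10.3 (0.45 higher), both with overlap. The proximal tubule list, 8 of 8 measured, was 11.2 to 11.5 and 10.8 to 11.4 with overlap. Their part in the run difference of Cdkn1c was not tested. Age is also tied to the runs and to the mesh of the sieve, so that age, run and mesh cannot be told apart in any comparison of P10 with P180.

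The tissue label was set against marker lists on arrays whose median log2 intensity was 6.00 to 6.18. Mean log2 levels over the 20 arrays were 9.73 to 10.4 for endothelium, 8.47 to 11.1 for vascular smooth muscle and 10.8 to 12.1 for the proximal tubule, so that the preparations held vessel and tubule transcripts. With age in controls, 14 of 14 cell cycle genes fell, with a median of -2.60, and 6 of 9 fibroblast and stroma genes fell while 2 rose. Of 7 measured smooth muscle genes 5 rose and 0 fell, and of 6 nephron progenitor genes 3 fell and 1 rose. The latter was Six2 (by 0.22), with a mean log2 of 4.44, below the array medians and not shown to be above background. Of the 3 that fell, Cited1 and Wnt4 had means of 5.76 and 5.86, also below the array medians, and Eya1 had 7.85. Of 7 measured endothelium genes 2 rose and 3 fell, of 8 proximal tubule genes 5 rose and 0 fell, and of 6 macrophage genes 4 rose and 1 fell. Over all transcripts 24.7% rose and 20.6% fell. The mean level of the fibroblast list was 9.83 to 10.7 in control P10 and 8.79 to 9.45 in control P180 arrays, and that of the cell cycle list 9.16 to 9.53 and 6.70 to 6.96. Their part in the fall of the members was not tested.

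**Figure D2:**
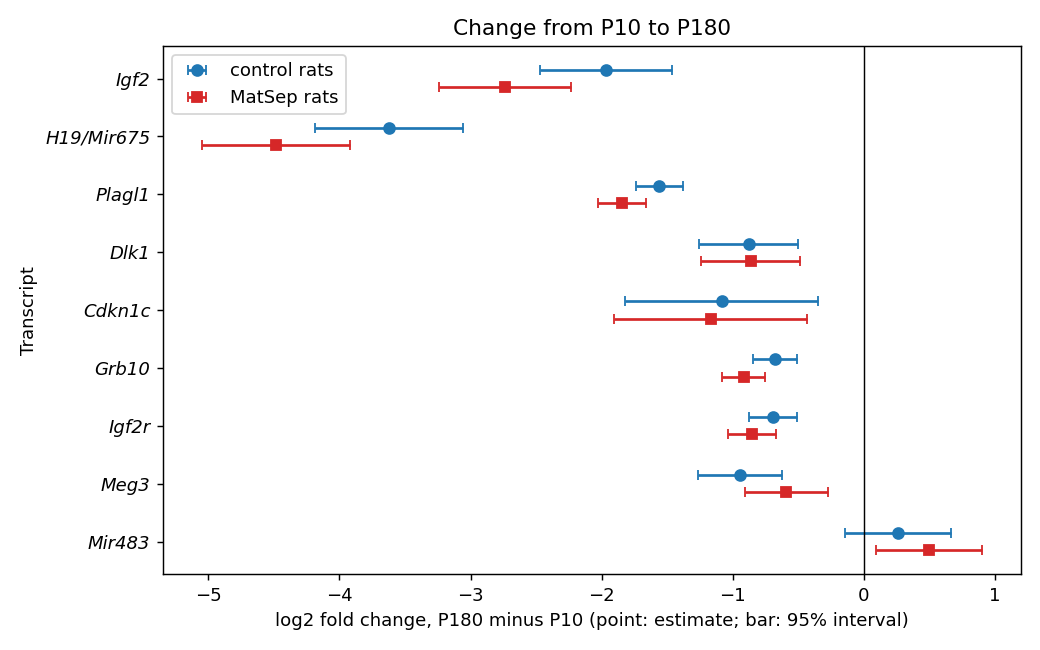
Change with age, as log2 of P180 over P10, of each transcript in control rats (circles) and MatSep rats (squares), with 95% intervals of the limma fit, for the members, Meg3 and the Mir483 precursor. All 7 members lie left of 0 in both groups, from -0.68 for Grb10 in controls to -4.48 for H19/Mir675 in MatSep rats.

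The intensities of the members did not fall by equal amounts. Within each array, the log2 level of H19/Mir675 relative to Igf2 was lower at P180 than at P10, with differences of -1.65 in controls and -1.75 in MatSep rats. Igf2r relative to Igf2 was higher by 1.27 and 1.88, Grb10 relative to Igf2 by 1.29 and 1.82, and Cdkn1c relative to H19/Mir675 by 2.53 and 3.32. Each of these 8 differences had adjusted p = 0.0198 in a 2-sided exact permutation test over every arrangement of 5 against 5 arrays, whose smallest possible p is 0.00794, with 20 tests run in all. Meg3, the non-coding RNA neighbouring Dlk1, relative to Dlk1 differed by -0.06 in controls (exact p = 0.802) and 0.27 in MatSep rats (exact p = 0.468). None of the 8 comparisons of MatSep with control that used these 4 differences, nor the 2 of Meg3, passed, with adjusted p of 0.176 to 0.905 (exact permutation test).

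Meg3, also of low intensity, fell in controls by 0.94 on the log2 scale (SE 0.15, adjusted p = 3.85e-05, limma) and in MatSep rats by 0.59 (SE 0.15, adjusted p = 0.00324, limma). The Mir483 precursor transcript, within Igf2, was low throughout, at 42.7 to 59.9 in control P10 arrays and 44.3 to 95.6 in control P180 arrays. Its log2 change with age was 0.26 in controls (SE 0.19, adjusted p = 0.280, limma) and 0.49 in MatSep rats (SE 0.19, adjusted p = 0.0393, limma), so that it rose only in MatSep rats by this test; the 2 changes were not shown to differ (interaction 0.23, adjusted p = 0.852, limma).

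The same 6 genes were then compared in MatSep rats between the ages. All 6 fell, against 22.2% of all transcripts, with a median log2 fold change of -1.04 for the 6 and 0.07 for all transcripts. The 2 age comparisons use different arrays, but both P10 groups share their runs, and their difference is the interaction given further on.

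The other imprinted genes moved in both directions. Of 53 listed, 39 were measured, and in controls 14 fell, 6 rose and 19 did not pass, with a median of -0.05. Of all transcripts 20.6% fell and 24.7% rose. Slc22a2, an organic cation transporter of the proximal tubule that is imprinted in the mouse placenta, rose by 2.67 on the log2 scale (adjusted p = 2.50e-11, limma). Zim1, a zinc-finger gene beside Peg3 in the mouse, fell by 1.44 (adjusted p = 1.41e-07, limma) and Ndn, the growth suppressor necdin, fell by 1.59 (adjusted p = 1.37e-05, limma), while Inpp5f rose by 0.70 (adjusted p = 4.72e-07, limma). In MatSep rats 11 of 39 fell and 7 rose, against 22.2% and 27.4% of all transcripts, where Zim1 had -2.02 and Ndn -2.56 (adjusted p = 9.10e-10 and 1.93e-08, limma).

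Of the 8 partners listed for the Plagl1 network in the mouse, 7 were measured and all 7 also stand in the list of imprinted genes. In controls 6 fell, namely Ndn, Meg3, Slc38a4 (by 0.76), Nnat (by 0.65), Gnas (by 0.45) and Dcn (by 0.44), and Gatm had 0.39 (adjusted p = 0.0931, limma). Of all transcripts 20.6% fell in this comparison. In MatSep rats 5 fell, against 22.2% of all transcripts, and Nnat (-0.32, adjusted p = 0.0725) and Gatm (0.26, adjusted p = 0.263) did not pass (limma). Dcn, the proteoglycan decorin, is also one of the 9 fibroblast markers.

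Of 20 listed IGF pathway genes, 19 were measured and in controls 11 fell and 4 rose, where 20.6% and 24.7% of all transcripts did. The largest changes were in Igf2bp2, an RNA-binding protein that binds Igf2 transcripts (log2 -3.11, SE 0.08, adjusted p = 4.62e-17, limma), and Pappa2, a protease that cleaves IGF-binding proteins (log2 -2.50, SE 0.13, adjusted p = 1.87e-12, limma). Pappa fell by 0.77 and Igf2bp1 by 0.52, with adjusted p of 6.23e-06 and 4.67e-05 (limma). Irs2, Stc2, Igfbp6 and Igfals rose, by 0.62, 0.60, 0.53 and 0.35. Igfals barely passed (adjusted p = 0.0492, limma), and its mean log2 of 4.91 was below the array medians and not shown to be above background. In MatSep rats 10 fell and 2 rose, the latter being Stc2 (0.52) and Igfals (0.37), and the log2 change was -3.16 for Igf2bp2, -2.18 for Pappa2 and -1.09 for Irs1, a docking protein of the insulin and IGF1 receptors. Igf1r, the receptor through which IGF2 signals, had -0.02 in controls and 0.06 in MatSep rats, with adjusted p of 0.844 and 0.424 (limma).

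**Figure D3:**
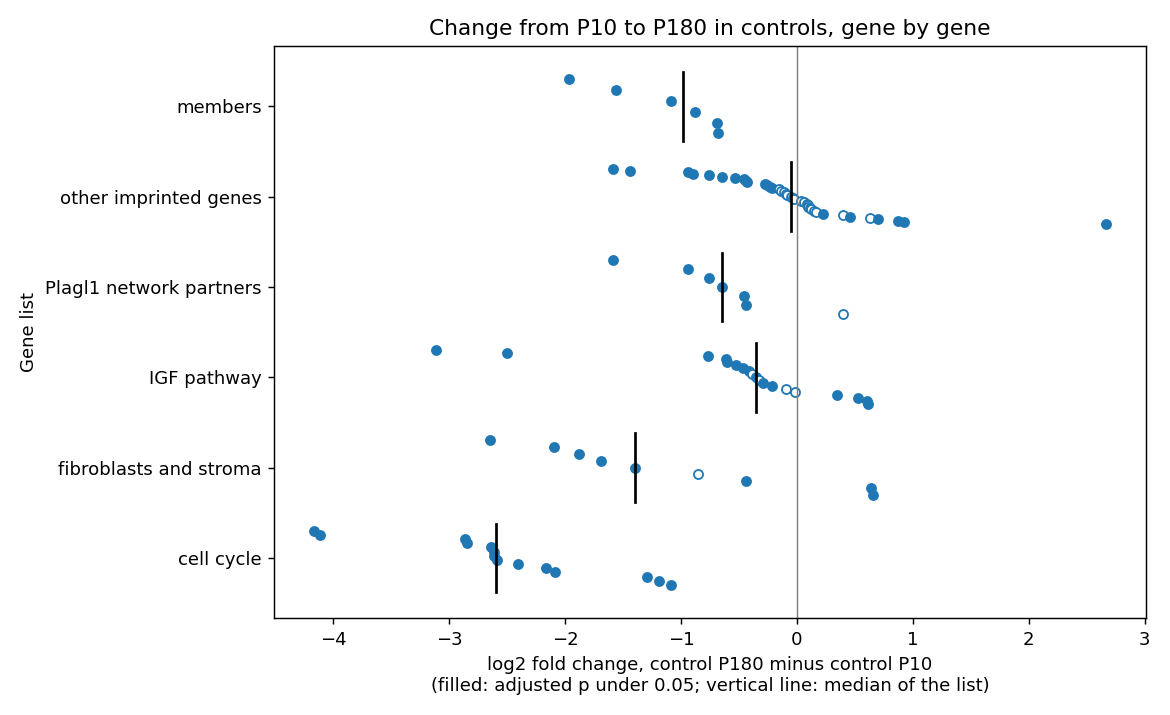
Change with age in control rats, as log2 of P180 over P10, of each gene in 6 lists, filled where the adjusted p was below 0.05, with the median of the list as a vertical line. All 6 members are filled and left of 0 (median -0.98), while the 39 other imprinted genes lie on both sides (median -0.05).

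Whether MatSep altered these genes in the neonatal vessels was asked next. At P10 none of the 6 genes passed in limma, where 3 of the 18511 transcripts did (0.0162%). The linear model without moderation also called 0 of the 6, and 1 of the 18511. At an unadjusted p below 0.05 limma gave 4 of 6, all higher in MatSep rats. At that p 5.1% of all transcripts were higher, and 1790 of the 18511 were called in either direction. The values were higher in MatSep rats for Igf2, H19/Mir675, Plagl1, Grb10 and Igf2r, with every one of the 5 MatSep arrays above the control mean, but the groups overlapped for every member. Set against the control median instead, Plagl1 had 4 of 5 MatSep arrays above it. Cdkn1c had 5 of 5 above the control median and 2 of 5 above the control mean. The share of all transcripts with such a pattern was not counted, and the share without overlap is not given here.

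The Igf2 log2 difference was 0.70 (SE 0.24, 95% interval 0.19 to 1.20, adjusted p = 0.339, limma). Control P10 replicate 1 had the lowest Igf2 of the 10 arrays and replicate 3 the third highest, so that the controls, with a log2 SD of 0.61, spread wider than the MatSep rats, with 0.28. H19/Mir675 differed by 0.80 (SE 0.27, 95% interval 0.24 to 1.36, adjusted p = 0.467, limma), and the highest of all P10 values was in MatSep replicate 2, at 1586. Plagl1 was 1288 to 1619 in MatSep P10 arrays, 0.21 above controls (SE 0.09, adjusted p = 0.453, limma). Igf2r differed by 0.20 (SE 0.09, adjusted p = 0.467, limma), while Dlk1 and Cdkn1c gave 0.01 and 0.19, with adjusted p of 0.994 and 0.904 (limma). With single arrays left out, the Cdkn1c difference ran from -0.02 without MatSep P10 replicate 2 to 0.53 without control P10 replicate 2, and that of Dlk1 from -0.05 to 0.12.

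Grb10 had the smallest p of the 6, with intensities of 564, 649, 565, 526 and 449 in control P10 and 615, 708, 725, 640 and 659 in MatSep P10 arrays. Of the MatSep arrays 3 lay above all 5 controls, and control replicate 2 lay above MatSep replicates 1 and 4. The difference was 0.29 (SE 0.08, 95% interval 0.12 to 0.45, adjusted p = 0.222, limma). It passed with array weights, at 0.31 with adjusted p = 0.0285, where 485 transcripts were called, and without control P10 replicate 2, at 0.35 with adjusted p = 0.0368, where 153 were called (limma). Over the alternatives tried its adjusted p was 0.0285 or higher.

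In samples 14 to 17, with 2 rats per group, the MatSep minus control difference was 0.56 for Igf2, 0.60 for H19/Mir675, 0.25 for Plagl1, 0.12 for Grb10 and 0.10 for Igf2r. In samples 19 to 24, with 3 rats per group, it was 0.79, 0.93, 0.18, 0.40 and 0.27 in the same order. Cdkn1c gave 0.05 and 0.28, and Dlk1 0.06 and -0.03. The runs are parts of the same arrays, so that their signs are no separate evidence. With the run as a block, H19/Mir675 had adjusted p = 0.178, Igf2 adjusted p = 0.184 and Grb10 adjusted p = 0.156 (limma).

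**Figure D4:**
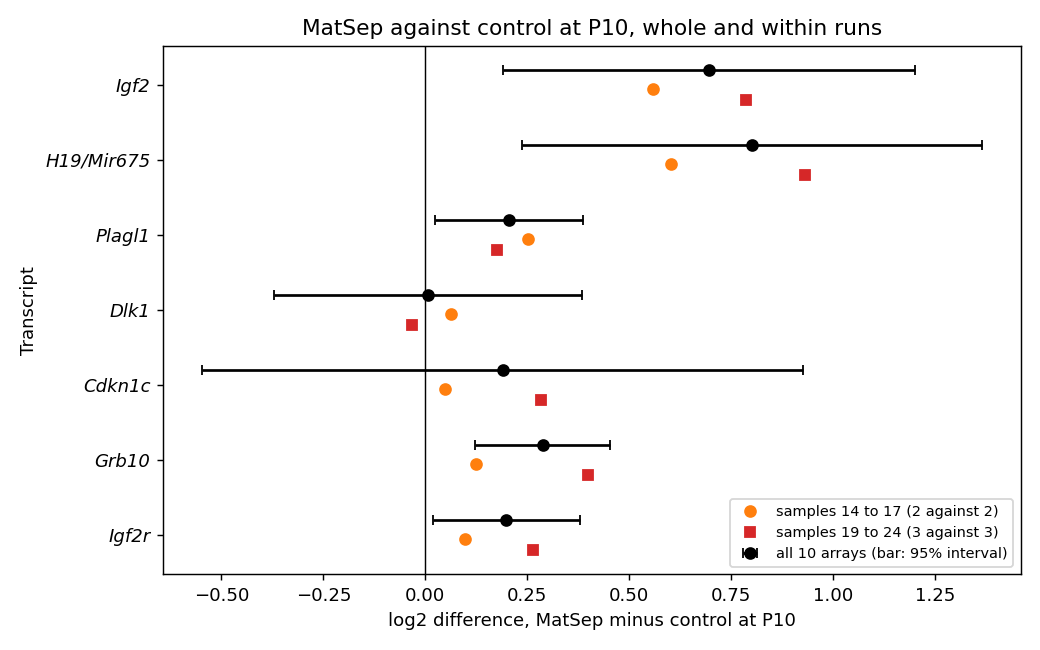
Log2 difference of MatSep minus control at P10 for each member, over all 10 arrays with the 95% interval of the limma fit (black) and within samples 14 to 17 (circles) and 19 to 24 (squares). Igf2 and H19/Mir675 lie at 0.70 and 0.80 over all arrays, and Dlk1 is at 0.01 with run values on either side of 0.

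Markers of other cells were also compared between the same P10 groups. All 9 fibroblast and stroma markers, all 6 adipocyte markers and all 6 macrophage markers had a higher mean in MatSep rats, with 0 passing the test and medians of 0.53, 1.44 and 0.24. The same held for all 7 vascular smooth muscle and all 5 stromal progenitor markers, with medians of 0.51 and 0.23, and for 1 of 8 proximal tubule and 2 of 14 cell cycle genes. All 6 pericyte and mesangium and all 4 measured podocyte markers also had a higher mean, with medians of 0.17 and 0.20. In the endothelium list 4 of 7 did, with a median of 0.05. Of these lists too 0 markers passed. The mean log2 level of the adipocyte list was 6.28 to 9.19 in control P10 and 8.14 to 9.67 in MatSep P10 arrays, and that of the fibroblast list 9.83 to 10.7 and 10.7 to 11.3. The cell cycle list was 9.16 to 9.53 and 9.11 to 9.40. Over the 20 arrays, with group means removed, Igf2 correlated with the fibroblast list at r = 0.87 and with the stromal progenitor list at 0.83, and with the loop, distal tubule and collecting duct list at -0.79. Igf2 also gave 0.76 with the vascular smooth muscle, 0.73 with the pericyte and mesangium, 0.65 with the endothelium and 0.50 with the adipocyte list. Grb10 and H19/Mir675 both correlated with the macrophage list at 0.73, and with the fibroblast list at 0.56 and 0.57. With the adipocyte list they gave 0.65 and 0.63, and with the vascular smooth muscle list 0.20 and -0.03. With run means also removed, Grb10 gave 0.71 with the macrophage list and 0.81 with the fibroblast list, and H19/Mir675 gave 0.77 and 0.87. The part of these cells in the differences of the members was not tested.

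Of the other lists, 0 of 39 imprinted genes, 0 of 7 Plagl1 partners and 0 of 19 IGF pathway genes passed between MatSep and control at P10 (limma). The 4 imprinted genes with the smallest p were Zim1 (0.73, adjusted p = 0.138), Gnas (0.60, adjusted p = 0.166), Sfmbt2 (-0.32, adjusted p = 0.273) and Ndn (0.64, adjusted p = 0.365). Among IGF pathway genes Igfbp6, a binding protein that prefers IGF2, had 0.66 (adjusted p = 0.202, limma), and Igfbp3 had 0.48 (adjusted p = 0.363, limma).

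In adult vessels the MatSep and control means were close. At P180 0 of the 6 genes passed in limma, where 6 transcripts, or 0.0324%, did, and 0 of 6 had an unadjusted p below 0.05, against 5.76% of all transcripts. The differences were from -0.08 for Plagl1 to 0.11 for Cdkn1c, and the groups overlapped for every member. For Grb10, 4 of 5 MatSep arrays lay above all 5 controls, and the overlap came from MatSep replicate 5. The share of all transcripts without overlap is not given here. The 95% intervals were -0.58 to 0.43 for Igf2, -0.63 to 0.50 for H19/Mir675, -0.26 to 0.10 for Plagl1 and -0.12 to 0.21 for Grb10. For Cdkn1c the interval was -0.63 to 0.84.

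Over both ages together 0 of 6 genes and 0 of 18511 transcripts (0%) passed in limma, and 1 gene, Grb10, had an unadjusted p below 0.05 (0.17, adjusted p = 0.716), against 5.95% of all transcripts. A difference of the MatSep effect between the ages was tested as the interaction, again with 0 of 6 genes and 0 of 18511 transcripts (0%) passing. Unadjusted, 3 of 6 genes were below 0.05, namely Plagl1 (-0.28, adjusted p = 0.489), Igf2 (-0.77, 95% interval -1.49 to -0.06, adjusted p = 0.500) and Grb10 (-0.24, adjusted p = 0.532), and H19/Mir675 had -0.87 (adjusted p = 0.646, limma). For all transcripts that share was 9.04%. These comparisons share their control and MatSep arrays with the comparisons at each age.

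Finally, how the members vary between rats of the same group was described. Over the 20 arrays with group means removed, the highest correlation was between H19/Mir675 and Cdkn1c (r = 0.74), followed by Igf2 and Igf2r (0.64) and H19/Mir675 and Grb10 (0.61). When the means of the runs within each group were removed too, H19/Mir675 and Cdkn1c gave 0.32, and Igf2 and H19/Mir675 gave 0.79 where it had been 0.39. Plagl1 then correlated at 0.66 with Grb10 and with Igf2r, from 0.33 and 0.51. The arrays share preparation, run and normalization.

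**Figure D5:**
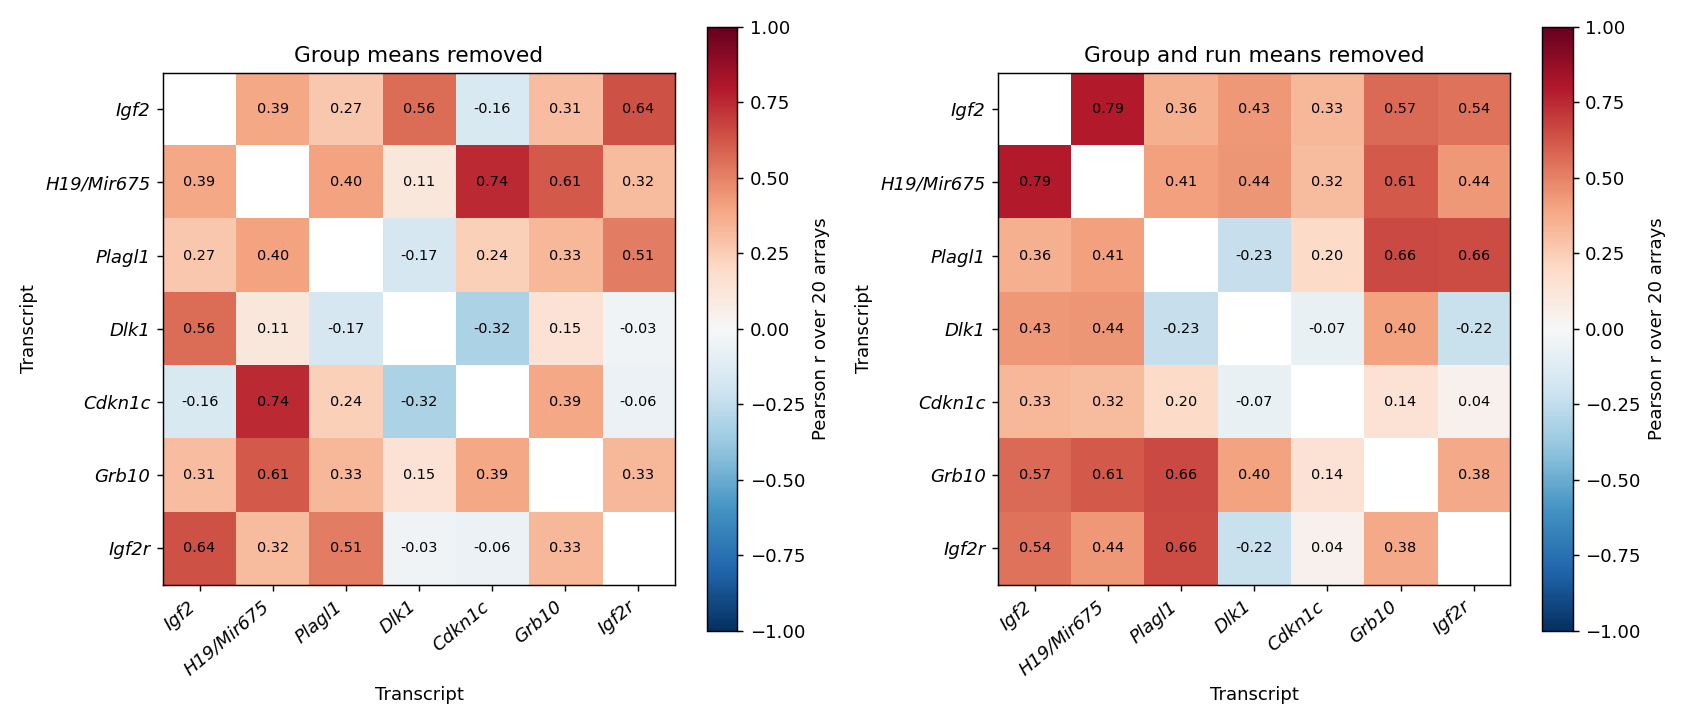
Pearson correlations between the members over 20 arrays of log2 intensity, after group means (left) and also run means (right) were removed. H19/Mir675 and Cdkn1c go from 0.74 to 0.32, and Igf2 and H19/Mir675 from 0.39 to 0.79.

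The transcripts most like each member over the 20 arrays, with group means removed and among those with mean log2 intensity of at least 5, were led by Nfia for Igf2 (r = 0.93), with Itpk1 and Timp2 at 0.91. They were Rpl21, Lgals3 and Akap12 for H19/Mir675 (0.88, 0.87 and 0.87) and Adam12, Or5b104 and Bcl2l11 for Plagl1 (0.82, 0.76 and 0.76). Dlk1 was followed most closely by Itga5 (0.92), Rbpms (0.90) and Unc5b (0.90), and Cdkn1c by Cks2 (0.95), Nefl (0.95) and Rpl32l2 (0.93). Baz1a (0.91), Rplp2 (0.85) and Gli2 (0.84) came first for Grb10, and Pam, Dlg2 and Lancl3 (0.78, 0.78 and 0.77) for Igf2r. Cks2 is a small subunit of cyclin-dependent kinases, and the Cdkn1c correlation with the cell cycle list was 0.76. Both Cdkn1c and that list differed between the P10 runs, and with run means also removed the correlation was -0.05 for the list, 0.73 for Cks2, 0.31 for Nefl and 0.70 for Rpl32l2.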

How the data were processed

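Total RNA of renal vessels from 20 male rats was hybridised to RaGene 2.0 ST arrays. The deposited values were transcript intensities on a linear scale, summarised by the authors with RMA and Partek; versions and genome build are not given in the sources used here. The deposited sheets of the authors' own comparisons, which hold their group means, p-values and fold changes, were not used. Every column of the intensity table was mapped to a sample, so 0 were left out.

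Intensities were taken to log2 and fitted with limma 3.58.1 (R 4.3.3) over the 20 arrays with a mean per group, with Benjamini-Hochberg adjustment over 18511 transcripts with a single gene symbol (36685 for H19/Mir675) and a threshold of 0.05. The model was tested on simulated data. The number of arrays limits the precision. Same-numbered replicates correlated above 0.1 in 4 of 5 pairs at P10 and 2 of 5 at P180, not in every pair, so the numbers were not taken as pairs. No pair of arrays held identical values.

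The members and gene lists were chosen with earlier results of these data known. All members were named, with up to 4 genes per further list by smallest p, and genes needed to name a count of 5 or fewer or single out a feature (Igf1r, Gatm, Nnat and Igfbp3 among them) chosen after their values were seen. Partner differences used exact permutation. Alternatives covered normalization, filter, weights, moderation, blocks, a second deposited copy and each array left out. Figures used Python 3.11.15 and matplotlib 3.10.9. Promoter and microRNA sequences came from RefSeq, build GRCr8.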

Additional observations from a re-analysis of the deposited data

Results flagged for a closer look

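In 3 of 36 groups of 5 arrays 1 rat stood apart from the other 4 by more than 0.71 of the range of its group, where chance alone flags about 1 in 20 groups. Plagl1 was lowest in MatSep P180 replicate 3, at a log2 intensity of 8.45 against 8.67 in the nearest rat. Cdkn1c was highest in control P180 replicate 1, at 8.16 against 7.79 in the nearest rat. Grb10 was lowest in MatSep P180 replicate 5, at 8.30 against 8.48 in the nearest rat.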

How the results depend on the processing

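All 6 genes fell with age in controls and in MatSep rats under the alternatives run for those counts, the replicate block included (6 and 6), except that in controls 5 did with array weights and without control P10 replicate 2. The gene lost there was Cdkn1c, at -0.79 (adjusted p = 0.0502) and -0.75 (adjusted p = 0.0550), limma. The share of all transcripts that fell under each of these alternatives is not given here. For MatSep at P10 the count was 0 in the replicate block and 1 with array weights, 0 to 1 when single arrays were left out (1 without control P10 replicate 2), and 4 by unadjusted p. The unadjusted count was 1 over both ages and 3 for the interaction, against 5.95% and 9.04% of all transcripts. No value of a member changed sign while called. The replicate numbers were not taken as pairs, and in 6 of 10 pairs the best match was the own number. The second deposited copy differed by at most 0.000607 on the log2 scale. Runs as a random block had a correlation of 0.20 within runs. The P10 subsets by run were added after the data were seen. With 5 arrays per group the adjusted tests leave small changes undetected.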
